A study of Rattus norvegicus with 50 samples.

Results

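The genes described here were selected on their levels in control rat lung, which were shifted in the same direction at D0 and at D3, the 2 earliest necropsy days, relative to D28. A gene was a member when the Control mean at D0 and the Control mean at D3 both differed from the Control mean at D28 in the same direction, by at least 0.58 in the log2 of the deposited series matrix, and when it was not a named core clock gene. Of 25885 gene names on the array, 117 were members, of which 19 were higher and 98 were lower at D0 and D3 than at D28, and they are called the higher and the lower members. A further 10 names of the clock itself passed the same limit and were left out by name, namely Arntl, Bhlhe40, Dbp, Nfil3, Npas2, Nr1d1, Nr1d2, Per2, Per3 and Tef. Since control values of these 3 days chose the members, they are given as a description and were not tested.

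The circadian clock is a feedback loop in which the activators Arntl (BMAL1) and Clock or Npas2 bind E-box sequences and switch on their own repressors, the Per, Cry and Nr1d genes. Output factors such as Dbp and Tef, whose targets are opposed by Nfil3, pass the rhythm on to other genes, and Arntl runs opposite in phase to Dbp and Nr1d1. In lung the clock is known to be active in epithelial cells, fibroblasts and macrophages, and to affect neutrophil chemokines, so that the hour of necropsy can set the level of many transcripts.

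The data came from 50 male F344 rats, 12 weeks old at exposure, of which 25 inhaled an aerosol of TiO2 P25 nanoparticles and 25 inhaled filtered air, in nose-only towers, 6 hours a day on 5 days of each week, for 4 weeks, the aerosol at 10 mg/m3. The 10 groups, Control and Exposed at 0, 3, 28, 90 and 180 days after exposure ended (D0, D3, D28, D90 and D180), each held 5 rats. RNA of the accessory lobe of each lung was measured on a 1-colour Agilent array. The hour of necropsy was not given in the sources used here. Control rats of D0 and D3 had also just left the towers and were younger than those of D28, so that clock hour, handling and age cannot be told apart in these values. Each value is an average over a whole lobe, and fewer cells of a type and less RNA per cell cannot be told apart.

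Values per rat are given as normalized log2 signal, the background-corrected array signal after quantile normalization, for the brightest probe of each gene name. The 50 arrays showed 68.7 to 84.5% of gene spots well above background, and the number of arrays limits the precision. A list of 12 lung marker genes averaged 15.9 to 16.3 in every rat. Exposed D28 rat 2 and Exposed D180 rat 4 stood apart by a skeletal muscle marker list, at 11.4 and 9.75, against 5.68 to 6.55 in the other 48 rats. Results that rest on these rats are also given without them. The labels do not say that rats of a group came from separate cages or litters, so the p-values measure only the spread between these rats.

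Sequences before an annotated start are shown for the 5 named members that carry an E-box there, the element that the clock activators bind. They were taken from RefSeq promoter windows of the GRCr8 build, which run from 250 bases before to 50 bases after such a start. The sequences are written 5′ to 3′ on the strand of the gene. For Acsm5 and Ciart the start lies inside the annotated gene (chr1:183302241-183328175 and chr2:186108744-186113778), and so do their stretches. Capitals mark the E-box CACGTG and, in Rasl10a, a ROR element, which is TAGGTCA, here read on the opposite strand. They come from chr1:7547269-7547334 (plus strand) for Epm2a, chr2:186112247-186112369 (minus strand) for Ciart, chr14:84168909-84168996 (plus strand) for Rasl10a, chr1:183302336-183302401 (plus strand) for Acsm5 and chr17:13530479-13530544 (minus strand) for Gadd45g.
Epm2a: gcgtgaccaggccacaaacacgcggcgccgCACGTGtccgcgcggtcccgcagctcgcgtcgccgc
Ciart: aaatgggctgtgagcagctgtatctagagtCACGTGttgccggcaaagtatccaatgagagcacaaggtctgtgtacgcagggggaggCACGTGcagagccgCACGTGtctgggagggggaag
Rasl10a: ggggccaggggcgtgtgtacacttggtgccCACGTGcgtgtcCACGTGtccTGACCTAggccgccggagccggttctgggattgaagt
Acsm5: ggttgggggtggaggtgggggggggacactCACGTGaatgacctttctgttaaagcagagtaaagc
Gadd45g: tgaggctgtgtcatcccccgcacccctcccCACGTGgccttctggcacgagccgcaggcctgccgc

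Epm2a, Ciart and Rasl10a are higher members, whereas Acsm5 and Gadd45g are lower members. The Ciart stretch holds 3 E-boxes and the Rasl10a stretch holds 2. The lower members Gprin3, Kctd3 and Unc45b also have an E-box before the start and are not shown. In Gprin3 the 3 sites lie before different annotated starts. Ciart, a repressor of the clock, is listed on the array under the older name RGD1566380, which the exclusion by name did not catch, and it was matched to RefSeq by its accession after its values were seen. A RefSeq gene was found for 73 members and at least 1 promoter window for 60. An E-box on either strand was found for 3 of 10 higher members with a window (30%) and for 5 of 50 lower members (10%). Of all 33469 single windows 6.42% held one. A member was counted when any of its windows held the element, so the shares of members and of windows are unlike measures. The ROR element was found for 1 higher and 1 lower member, beside 2.63% of all windows, and the cAMP element TGACGTCA for 2 lower members, beside 1.83%. The D-box (TTACGTAA or TTATGTAA, bound by Dbp), the glucocorticoid element and the heat shock element were in no window of the 60 members. Of all windows 1.01%, 0.439% and 0.798% held them. Such a match describes the letters of the window and is no evidence of binding.

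The state of the clock in each group was summarized by an index, the mean normalized log2 signal of 7 output-side genes (among them Dbp, Tef and Nr1d1) minus that of Arntl, Clock, Npas2 and Nfil3, none of which is a member. In Control rats the index was 3.00 ± 0.239 at D0 and 2.48 ± 0.268 at D3, and it was −1.43 ± 0.135 at D28, −1.16 ± 0.212 at D90 and −1.14 ± 0.213 at D180 (SD, n = 5 each). Control lungs of D0 and D3 were thus at the Dbp-high side and those of the 3 later days at the Arntl-high side, with no overlap between the early and the late rats. Exposed rats were at 0.957 ± 0.296 at D0 and −0.0258 ± 0.43 at D3. On the later days they were at 1.13 ± 0.713 (D28), 1.38 ± 0.566 (D90) and 0.97 ± 0.298 (D180; SD, n = 5 each). At each of D28, D90 and D180 the lowest Exposed rat was above the highest Control rat, whereas at D0 and D3 the highest Exposed rat was below the lowest Control rat. The name of the member set refers to the clock phase of the control rats. The later control groups, which the rule did not use, show only whether members kept their D28 level.

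Control rats of D90 and D180 had about the same index as those of D28, so the rule was applied again with either group in place of D28. With D90 the limit was passed by 12 of the 19 higher members and by 25 of the 98 lower members, while 548 of all 25885 gene names passed it. With D180 it was passed by 11 of 19 and by 28 of 98, and by 677 of all gene names. The lower members split by brightness. Of the 46 lower members whose signal was well above background on at least 40 of the 50 arrays, 24 passed with D90 and 25 with D180, whereas of the 33 seen on fewer than 10 arrays 0 and 1 passed. On the series matrix log2 scale the median lower member was 0.734 higher at D28 than over D0 and D3, but 0.273 higher at D90 and 0.365 higher at D180. Control arrays of D0, D3 and D28 were on slides 1 to 4 and those of D90 and D180 on slides 5 to 7, so that slide and these later days cannot be told apart. The dim lower members thus did not keep their D28 level in the later controls, and they are called here by the rule alone. The comparison kept the D0 and D3 rats that chose the members. Like the D28 rats, the later controls were also older and longer out of the towers than those early rats. The part of clock hour in these levels was thus not tested.

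Among all members 62 were well above background on at least 40 arrays (16 higher and 46 lower), 21 on 10 to 39 arrays and 34 on fewer than 10 (1 higher and 33 lower). On the series matrix scale a single Control D28 rat lay far above its 4 group mates in 37 members, 35 of them lower members and 22 of them among the dim ones. On normalized signal this held for 22 members, all of them among the 37. That scale leaves out spots flagged as outliers, which the series matrix, and so the rule, keeps. Only members with all 5 Control D28 values were counted on it. The value of the high rat was blank there in A_64_P037410, A_64_P070763, LOC499746, Mpa2l and XM_341543. In Gpr31 it was 11.43 on the series matrix scale and 4.94 on normalized signal. Among the 37 the rat concerned was not the same throughout, being rat 4 in 12 members, rats 1 and 3 in 9 members each, rat 2 in 5 and rat 5 in 2. The extreme case was the unnamed probe A_64_P148836, at 17.27 in 1 Control D28 rat and at 5.72, 5.76, 5.91 and 5.92 in the others. Another was Olr996, an olfactory receptor gene, at 9.87 in 1 Control D28 rat and at 2.53, 2.68, 2.73 and 2.83 in the rest. Skor2, a transcriptional corepressor, had 4 usable Control D28 values, at 2.40, 5.09, 6.06 and 9.03, and those values overlapped with the D0 and D3 rats.

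**Figure D1:**
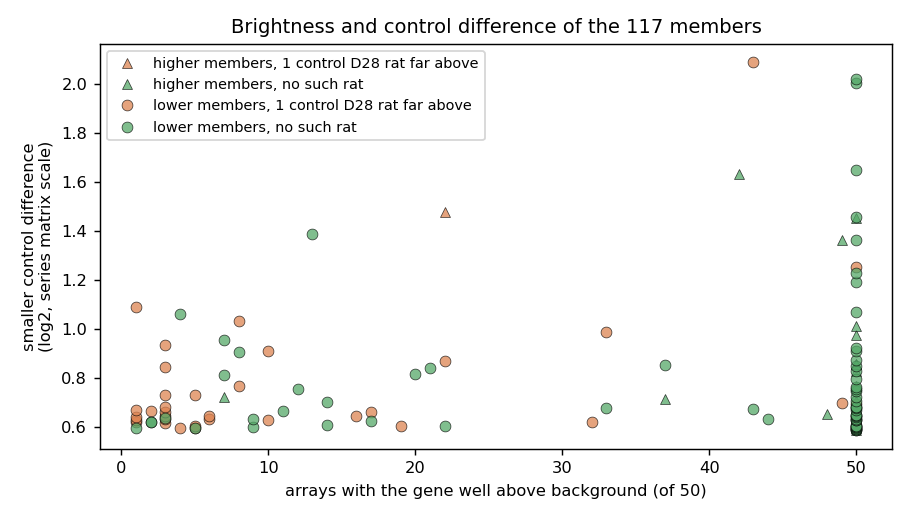
The number of arrays (of 50) on which a member was well above background is on the x axis and the smaller of its 2 control differences, as log2 on the series matrix scale, on the y axis, with triangles for the 19 higher members, circles for the 98 lower members, and orange for the 37 members in which 1 Control D28 rat lay far above the others on that scale. The orange points gather at the left, where 34 members were seen on fewer than 10 arrays.

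On the series matrix scale the 5 Control D28 rats did not overlap with any of the 10 Control rats of D0 and D3 in 46 members (14 higher and 32 lower), and on normalized signal in 44 (14 and 30). A total of 41 members (12 higher and 29 lower) met the rule whichever single control rat was left out. Just inside the limit lay Gadd45g at 0.585, Ccnjl at 0.587 and Esm1 at 0.588 (smaller of the 2 sizes), and outside it lay Olr447 at 0.577 and TC620332 at 0.575. Control D28 rat 5 had the lowest mean of the lower members in its group, and without it the rule found 186 members in place of 117.

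Of the 19 higher members 14 have a gene symbol. The widest control difference among them was that of Epm2a, which encodes laforin, a phosphatase acting on glycogen. Its signal was 7.13, 7.32, 7.49, 7.79 and 8.04 in Control rats at D0, 7.06, 7.39, 7.43, 7.58 and 7.81 at D3, and 3.83, 4.41, 4.85, 4.96 and 5.17 at D28. All 10 early rats were above all D28 rats, although at D28 only 1 of the 5 was well above background. Rasd2 (Rhes, a small GTPase) was 10.38 ± 0.20 at D0 and 10.83 ± 0.19 at D3, against 8.83 ± 0.33 at D28. Wee1, the kinase that holds back entry into mitosis and a known clock target, was 11.22 ± 0.10, 10.85 ± 0.20 and 10.04 ± 0.11 on the same days, and Cyp2a3, a cytochrome P450, was 10.81 ± 0.26, 9.57 ± 0.38 and 8.71 ± 0.31 (SD, n = 5 each). Further higher members were the tetraspanin Tspan4, the mitochondrial carbonic anhydrase Car5a, the Ras-like GTPase Rasl10a, the acetyltransferase family gene Cml3, the endothelial proteoglycan Esm1 and Ccdc116, with smaller control differences between 0.588 and 1.36 on the series matrix scale.

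The lower members with a symbol and the widest control differences were Hs3st6, Eln and Spon2. Hs3st6, a heparan sulfate sulfotransferase, was at 10.77, 10.77, 10.81, 11.23 and 11.32 in Control rats at D0, at 10.43, 10.69, 11.23, 11.26 and 11.37 at D3 and at 12.72, 12.91, 13.32, 13.32 and 13.34 at D28. Eln, the gene of elastin, was 11.23 ± 0.24 at D0, 11.48 ± 0.43 at D3 and 13.80 ± 0.18 at D28, and the matrix protein gene Spon2 was 8.15 ± 0.22, 8.90 ± 0.46 and 10.62 ± 0.20. For these genes the D28 rats lay above all earlier rats. Col1a1, the main chain of type I collagen, had intermediate values at D3, with means of 11.09 ± 0.25, 12.18 ± 0.36 and 13.17 ± 0.19 (SD, n = 5 each). Lcn2, a siderophore-binding protein of neutrophils and inflamed epithelium, was 9.47 ± 0.35 and 9.49 ± 0.41 at D0 and D3 and 10.30 ± 0.33 at D28. Its highest early rat, at 9.93, was only just above the lowest D28 rat, at 9.92.

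**Figure D2:**
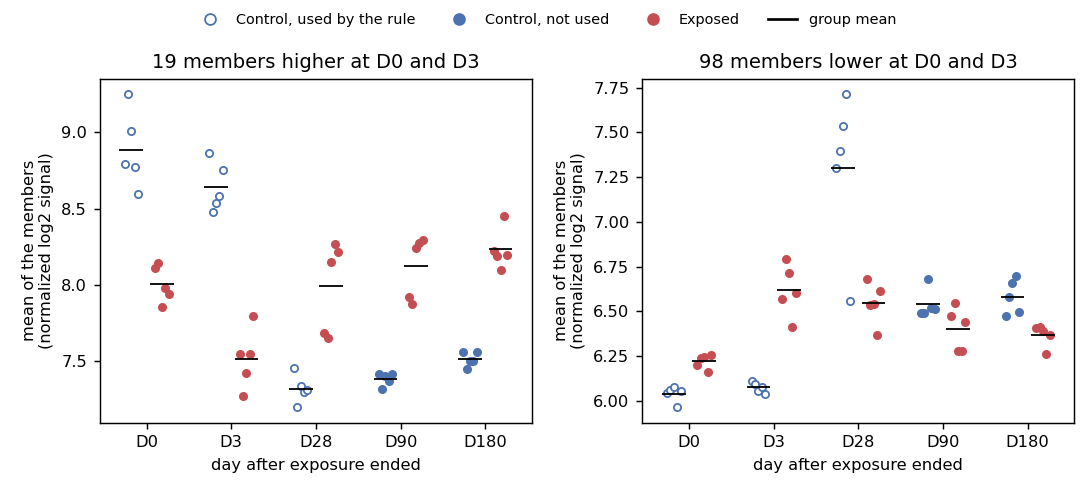
The mean normalized log2 signal over the 19 higher members (left) and the 98 lower members (right) is shown for each rat (points) by day after exposure ended, with group means as lines, and open circles mark the control rats that chose the members. Control rats of D90 and D180 lie with D28 for the higher members, whereas for the lower members they lie between the early controls and D28.

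Exposed and Control rats were compared at D90 and D180, which used no rat that chose the members, and the question was whether the members differed with treatment long after exposure. A gene was called when it differed by at least 1.5-fold with an adjusted p below 0.05 (limma, Benjamini-Hochberg over 25208 genes tested). The test covered 111 members, all 19 higher and 92 of the 98 lower ones. At D90, 7 of the 19 higher members were called higher in Exposed rats, while 0.246% of all genes tested were called higher, and 11 of the 98 lower members were called lower, while 0.135% of all genes tested were. None was called in the other direction. At D180, 5 higher members were called higher (0.246% of all genes tested) and 7 lower members were called lower (0.0793% of all genes tested), and again none the other way. The median over the 19 higher members, called or not, was 0.596 on the log2 scale at D90 and 0.414 at D180, and over the 98 lower members it was −0.16 and −0.186. The medians of all 25885 genes were 0.00167 and 0.00176. Whether the clock index, which differed between Control and Exposed rats at both days as given above, has a part in these calls was not tested.

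Epm2a had the highest correlation with the clock index over group means among the members, and was called on both days. In Control rats of D90 it was at 4.60, 4.95, 5.13, 5.18 and 5.27 and in Exposed rats at 5.90, 6.54, 6.76, 6.77 and 7.23. The groups did not overlap, and the difference was 1.61 ± 0.28 (log2, SE; adjusted p = 0.000423). At D180 Control rats were at 3.95, 4.45, 5.16, 5.43 and 5.51 and Exposed rats at 5.86, 6.19, 6.32, 6.59 and 6.80, a difference of 1.45 ± 0.28 (adjusted p = 0.00231), again without overlap. At each of these days 4 of 5 Control rats and all Exposed rats were well above background.

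Rasd2 differed by nearly the same amount on both days. Its signal at D90 was 8.75, 8.81, 8.84, 8.93 and 9.22 in Control and 9.75, 9.89, 10.14, 10.52 and 10.53 in Exposed rats, a difference of 1.26 ± 0.164 (adjusted p = 2.38e-06). At D180 it was 8.30, 8.56, 8.71, 9.02 and 9.02 against 9.85, 9.89, 9.98, 9.98 and 10.09, a difference of 1.24 (adjusted p = 3.51e-06). Every Exposed rat was above every Control rat on both days. Rasl10a was higher by 0.80 ± 0.137 at D90 (adjusted p = 0.000338), with Control rats between 7.36 and 7.72 and Exposed rats between 8.03 and 8.68. At D180 its difference was 0.40 (adjusted p = 0.21) and the Control and Exposed ranges, 7.29 to 7.97 and 7.87 to 8.12, overlapped.

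Car5a, which supplies bicarbonate inside mitochondria, was at 4.47, 4.73, 4.86, 5.09 and 5.47 in Control and at 6.06, 6.50, 6.62, 6.74 and 6.78 in Exposed rats of D90. At D180 it was at 4.61, 4.78, 5.03, 5.43 and 5.70 against 6.11, 6.21, 6.29, 6.30 and 6.80. The groups were apart on both days, by 1.62 ± 0.195 (adjusted p = 4.5e-07) and 1.23 (adjusted p = 9.72e-05). On the series matrix and normexp scales, which compress dim genes, the D90 differences of Epm2a were 0.796 and 0.668 and that of Car5a was 0.705 on the normexp scale, and these were still called. At D180 Car5a was 0.574 on the normexp scale and was not called, and Epm2a, at 1.45, was not called when only the arrays of the 2 groups were fitted. Ccdc116, whose role is not described here, was called at D90, with 1.89 ± 0.367 (adjusted p = 0.00217). Rprml was also called at D90, Cml5 at D180, and the transcript TC615028 on both days, with 0.89 and 1.00, and these 3 were picked out after their values were seen.

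Ciart (RGD1566380) was at 3.85, 4.26, 4.86, 4.99 and 5.23 in Exposed rats of D90, 3 of which were well above background, and at 2.48, 2.49, 2.73, 2.98 and 3.27 in Control rats, of which none was. On normalized signal Exposed rats were 3.59-fold higher (adjusted p = 0.0551). With Control signal at the background, the size of this difference depends on the processing and is no lower bound. At D180 Exposed rats were 3.39-fold higher (adjusted p = 0.0785), with 4 of 5 of them and no Control rat above background. The groups did not overlap on either day, and neither difference passed the limit on the adjusted p. With 75th percentile scaling, with slide as a block, or with only the arrays of the 2 groups both were called, whereas on the normexp scale the differences were 0.297 and 0.443 (log2) and were not called.

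Among the lower members both heparan sulfate sulfotransferases were called on both days. Hs3st6 at D90 was at 12.46, 12.49, 12.57, 12.71 and 12.76 in Control rats and at 11.05, 11.15, 11.22, 11.46 and 11.83 in Exposed rats. It fell by 1.25 on the log2 scale (SE 0.192, adjusted p = 5.54e-05) and the groups did not overlap. At D180 it was at 12.46, 12.58, 12.61, 12.63 and 12.68 against 11.44, 11.57, 11.75, 12.02 and 12.06, a difference of −0.82 (adjusted p = 0.0204). Hs3st3a1 differed by −0.99 ± 0.129 at D90 (adjusted p = 2.12e-06) and by −0.70 at D180 (adjusted p = 0.00119), with no overlap on either day. Hs3st3a1 has 2 probes that disagreed, and with their mean its differences were −0.492 at D90 and −0.419 at D180, while on the series matrix scale they were −0.456 and −0.39. It was called under neither setting, nor at D180 when only the arrays of the 2 groups were fitted.

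Eln was also called on both days. At D90 it was at 13.11, 13.19, 13.24, 13.26 and 13.46 in Control and at 11.52, 11.93, 12.15, 12.25 and 12.44 in Exposed rats, a difference of −1.19 ± 0.199 (adjusted p = 0.000245). At D180 it was at 12.94, 13.01, 13.10, 13.10 and 13.15 against 11.95, 12.17, 12.22, 12.39 and 12.68, a difference of −0.78 (adjusted p = 0.0414). Exposed rats were below all Control rats on both days. The D180 call of Eln was lost in 9 of 20 settings, among them the omission of Exposed D180 rat 4 (−0.699, adjusted p = 0.138). Fibin, which encodes a small secreted protein, was 10.78 ± 0.21 in Control and 9.62 ± 0.16 in Exposed rats at D90 (adjusted p = 3.97e-07), and 10.79 ± 0.17 and 10.00 ± 0.24 at D180 (adjusted p = 0.000573; SD, n = 5 each). The secreted protease Adamts9 was 10.84 ± 0.36 in Control and 9.88 ± 0.09 in Exposed rats at D90, a difference of −0.96 (adjusted p = 0.0192). At D180 its difference was −0.91 (adjusted p = 0.0329), and 1 Control rat, at 9.99, lay inside the Exposed range of 9.75 to 10.30. Spon2 was called at D90, with −0.90 ± 0.192 (adjusted p = 0.00709), but not at D180, with −0.59.

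The other lower members called on both days were Clspn and Ccdc109b. Clspn (claspin), an adaptor of the DNA replication checkpoint, differed by −1.03 at D90 (adjusted p = 0.00562) and by −0.91 at D180 (adjusted p = 0.0241), but its differences were −0.406 and −0.401 at D90 on the normexp and series matrix scales and were not called there. Ccdc109b (Mcub in RefSeq, a subunit that restrains the mitochondrial calcium uniporter) was between 11.33 and 11.60 in Control and between 10.56 and 11.09 in Exposed rats of D90, a difference of −0.69 ± 0.12 (adjusted p = 0.000465). At D180 the difference was −0.60 (adjusted p = 0.0038). Called at D90 alone, and picked out after their values were seen, were Adm (adrenomedullin, a vasodilator peptide) with −1.06 ± 0.161 (adjusted p = 4.3e-05), Cyp4b1 (a lung cytochrome P450) with −0.64 ± 0.116 and the unnamed probe A_64_P021206 with −0.83 ± 0.2.

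Of the 18 members called at D90, 14 were called whichever rat of the 2 groups was left out. Of the 12 called at D180, 6 were, namely Car5a, Epm2a, Fibin, Hs3st3a1, Rasd2 and TC615028. Without Exposed D180 rat 4, which carried the muscle signal, these same 6 members were called. Without Control D180 rat 1 or rat 2 there were 7 calls each. A test of whether the Exposed to Control difference changed between D90 and D180 called no member.

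**Figure D3:**
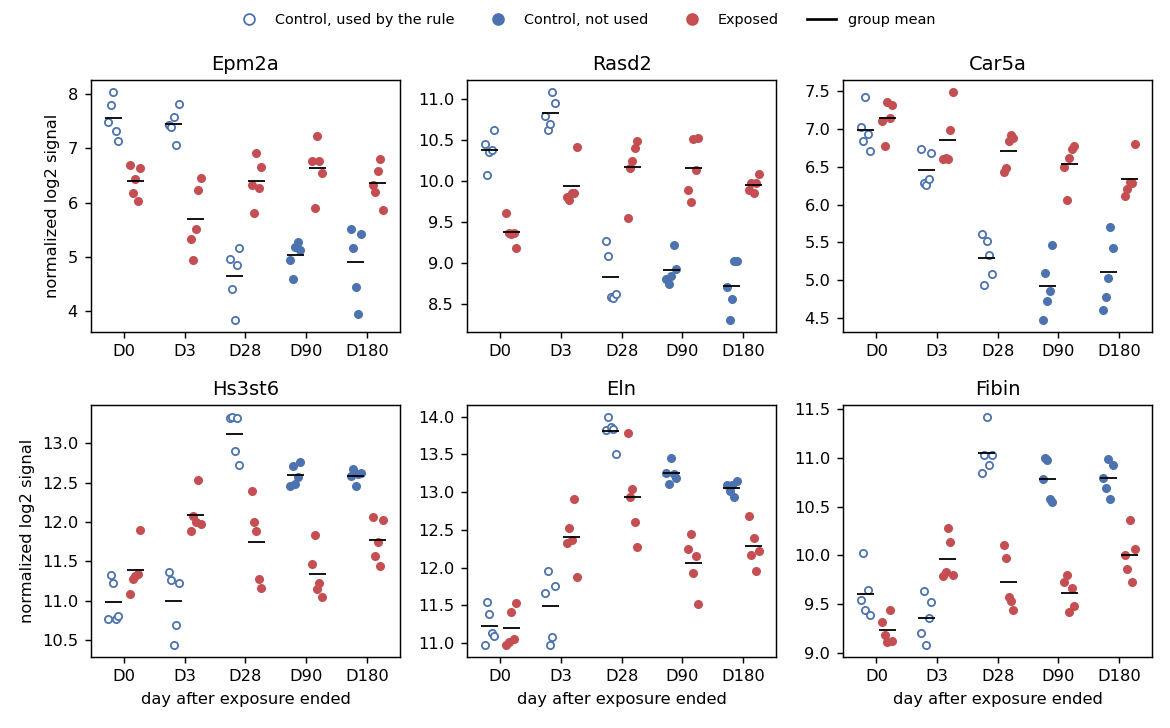
Normalized log2 signal of 6 members called at D90 and at D180 is shown for each rat by day after exposure ended, with group means as lines and open circles for the control rats that chose the members. In each panel all Exposed rats of D90 and D180 lie on the side of the early controls relative to the Control rats of the same day.

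**Figure D4:**
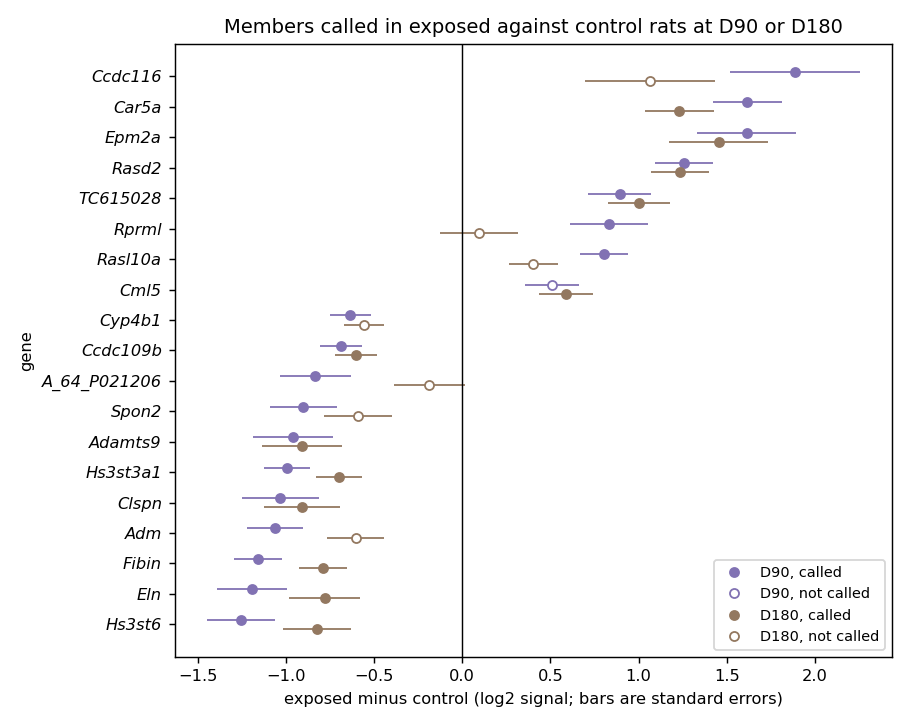
Exposed minus Control differences (log2 signal, points, with standard errors as bars) are plotted for the 19 members called at D90 or D180, filled where called. All higher members lie to the right of 0 and all lower members to the left, and Rprml, Rasl10a and Ccdc116 were called only at D90.

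Control rats of D180 were also compared with those of D90, as a check that the 2 later control groups were alike for these genes. No member was called in either direction in limma, and 0 passed with an unadjusted p below 0.05 together with the fold limit, while 0.00397% of all genes tested were called higher and 0.0159% lower. The median difference was 0.187 over the 19 higher and 0.0151 over the 98 lower members.

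The days of the rule were then compared within Exposed rats, which the rule had not used. Exposed D0 and Exposed D3 were each set against Exposed D28, so the comparisons share the D28 rats. At D0, 2 of 19 higher members were called higher (0.69% of all genes tested) and 3 were called lower (0.734% of all genes tested). Of the 98 lower members 10 were called lower at D0 and 5 higher. At D3, 0 higher members were called higher (0.956% of all genes tested) and 4 were called lower (0.734% of all genes tested), while 6 lower members were called higher and 1 was called lower. The medians were 0.00256 and −0.265 for the higher and lower members at D0, and −0.396 and 0.0164 at D3. The control direction was thus seen at D0 for part of the lower members and for 2 higher members, with 3 higher members called the other way. At D3 it was seen for a single called member, Arsi, an arylsulfatase gene, with −0.62. The mean clock index of these Exposed rats was lower at D3 than at D28, as given above, with overlapping rats, and its part in these counts was not tested.

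Among the 10 lower members called lower at D0, the widest differences were those of Col1a1, Spon2 and Eln. Col1a1 was at 10.98, 11.09, 11.35, 11.40 and 11.43 in Exposed rats of D0 and at 12.78, 12.84, 13.13, 13.17 and 13.40 at D28. The days did not overlap, and the difference was −1.81 ± 0.144 (adjusted p = 7.95e-12). Spon2 was at 7.22, 7.76, 7.83, 7.94 and 8.0 against 9.0, 9.45, 9.54, 9.68 and 10.15, a difference of −1.81 ± 0.192 (adjusted p = 8.11e-09), and Eln differed by −1.73 ± 0.199 (adjusted p = 6.62e-08). At D3 Eln and Col1a1 were closer to D28, with means of 12.40 ± 0.37 and 12.55 ± 0.19 against 12.93 ± 0.56 and 13.06 ± 0.26 (SD, n = 5 each), and were not called. The other lower members called lower at D0 were Ccdc109b, Acsm5 (a medium-chain acyl-CoA synthetase), Cyp4b1, the channel subunit Kcnmb2, the semaphorin Sema4g, Arsi and TC646703, with differences from −0.66 to −1.24, of which all but Ccdc109b and Acsm5 were picked out after their values were seen. Sema4g, at −1.24, rested on Exposed D28 rat 4, at 10.12 against 7.48 to 8.73 in the other 4, and without it the difference was −0.801 (adjusted p = 0.168). Acsm5 fell to −0.711 without Exposed D28 rat 1 (adjusted p = 0.0783), and Cyp4b1 to −0.579, below the fold limit, without Exposed D0 rat 3. Higher members called higher at D0 were Cml3, with 0.96 ± 0.17 (adjusted p = 0.000193), and Wee1, with 0.65 ± 0.0983 (adjusted p = 1.4e-05). Without Exposed D28 rat 2, which carried the muscle signal, Wee1 was at 0.573, below the fold limit.

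In the direction opposite to the controls, 5 lower members were called at D0 and 6 at D3, and since both comparisons used the same D28 rats their values are only set side by side. Lcn2 was at 12.49, 12.59, 12.63, 12.82 and 12.91 in Exposed rats of D0, at 11.44, 11.78, 11.92, 12.12 and 12.43 at D3 and at 10.77, 10.78, 10.78, 10.85 and 11.28 at D28. The differences from D28 were 1.79 ± 0.207 (adjusted p = 6.62e-08) and 1.05 ± 0.207 (adjusted p = 0.000822), without overlap. The others, picked out after their values were seen, were Cxcl5 (a neutrophil chemokine, matched to RefSeq Cxcl6), with 1.77 at D0 and 2.04 at D3, Noxo1 (an organizer of NADPH oxidase), with 1.02 and 1.05, the forkhead factor Foxn4, with 1.56 and 1.63, and Tmem171, with 0.99 and 0.90. At D3 Enpp3, an ectonucleotidase, was also called, with 0.60 ± 0.0917 (adjusted p = 1.53e-05). A list of 12 neutrophil markers, Lcn2 among them, averaged 8.521 to 9.015 in Exposed rats at D0, 8.721 to 8.95 at D3 and 8.289 to 8.502 at D28, and its part in these values was not tested. Of the 12 markers 4 were called higher at D0 and 5 at D3.

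The higher members called lower than at D28 were Rasd2, Ccdc116 and Rprml at D0, and Ccdc116, Rprml, Cml5 and TC615028 at D3. Rasd2 was at 9.18, 9.36, 9.37, 9.37 and 9.61 in Exposed rats of D0 and at 9.55, 10.16, 10.25, 10.41 and 10.49 at D28, a difference of −0.79 ± 0.164 (adjusted p = 0.00159), with 1 D28 rat inside the D0 range. Ccdc116 was 6.81 ± 0.21 at D0 and 8.10 ± 0.85 at D28, a difference of −1.28 (adjusted p = 0.0349; SD, n = 5 each). Exposed D28 rat 2, with the muscle signal, belonged to both comparisons. Without it, 11 members at D0 and 1 at D3 were called in the control direction, against 12 and 1 with it. Whichever rat was left out, 14 of all 20 members called at D0 and 7 of all 11 called at D3 were still called. Those lost under at least 1 omission were Acsm5, Ccdc116, Cyp4b1, Rprml, Sema4g and Wee1 at D0, and Arsi, Enpp3, TC615028 and Tmem171 at D3. When only the arrays of the 2 groups were fitted, the calls opposite to the controls went from 8 to 4 at D0 and from 10 to 4 at D3.

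**Figure D5:**
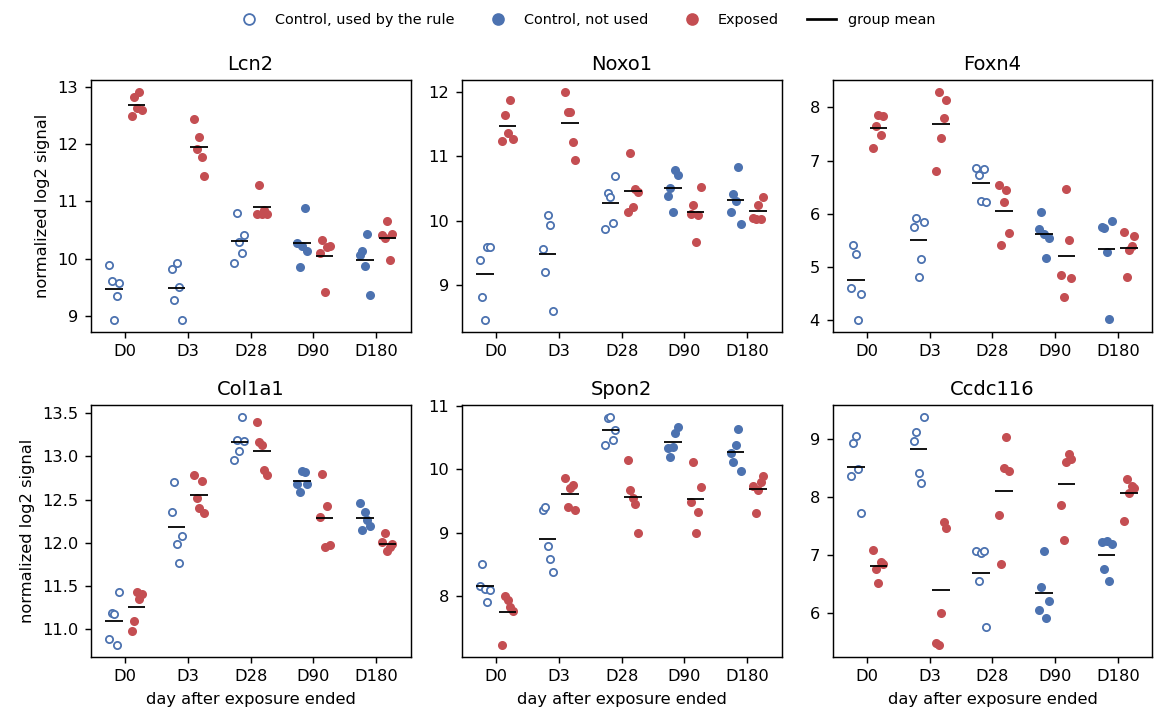
Normalized log2 signal of 6 members that differed between days within Exposed rats is shown for each rat by day after exposure ended, with group means as lines and open circles for the control rats that chose the members. Lcn2, Noxo1 and Foxn4 are highest in Exposed rats of D0 and D3, whereas Col1a1 and Spon2 have lower values at D0 than at D28 in Control and in Exposed rats.

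Exposed rats were also set beside the Control rats of D0, D3 and D28, whose values chose the members, so only differences are given. For higher members that choice by itself pulls Exposed below Control at D0 and D3 and above it at D28. For lower members it pulls the other way. Of the 19 higher members 18 were lower in Exposed than in Control rats at D0, and 18 at D3, with medians of −0.774 and −0.962, whereas at D28 16 were higher, with a median of 0.491. Lower members had medians of −0.00502 at D0, 0.404 at D3 and −0.69 at D28. Epm2a differed by −1.16, −1.76 and 1.75 on these days, Rasd2 by −1.0, −0.89 and 1.34, and Ccdc116 by −1.70, −2.43 and 1.40. Hs3st6 differed by 0.40, 1.1 and −1.38, and Eln by −0.03, 0.92 and −0.88. Apart from this pattern stood Car5a, at 0.16, 0.40 and 1.41, and the inflammatory members, with Lcn2 at 3.22, 2.45 and 0.60 and Cxcl5 at 4.15, 4.05 and 0.03.

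Likeness to the clock was measured as Pearson's r between a member's group mean and the clock index over the 7 groups that the rule did not use, which share their arrays with the index. Control D90 and Control D180 had the lowest index of these groups, at −1.16 and −1.14, while the Exposed groups ran from −0.0258 to 1.38. This r is therefore not separate from the Exposed to Control differences at D90 and D180. The higher members had a median r of 0.497, 17 of 19 were above 0 and 6 reached 0.8. The lower members had a median of −0.193, 65 of 98 were below 0 and 12 reached −0.8. Over all genes tested the median was 0.0138, with 1.48% at 0.8 or more and 1.12% at −0.8 or less. The members most like the index were Epm2a (0.997), Ciart (0.984), TC615028 (0.977), Rasl10a (0.946), Rasd2 (0.851) and Car5a (0.836). The most opposed were Hs3st6 (−0.960), the unnamed probe A_64_P013877 (−0.959), Adamts9 (−0.918), Kctd3 (−0.901), Hs3st3a1 (−0.901) and Fibin (−0.900). In these 7 groups A_64_P013877 was well above background in only 1 rat, of Control D180. Its r rests on 1 rat each of Control D90 (3.9) and Control D180 (3.89), with the other rats near the floor. Lower members well above background on at least 40 arrays had a median of −0.614, and those on fewer than 10 arrays had a median of 0.107.

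The same relation was taken among rats within groups, as r between a member and the index over the 35 rats of these 7 groups after each group's mean was subtracted. The median was 0.52 for the higher members, of which 12 of 19 reached 0.5, and −0.145 for the lower members, of which 17 of 98 reached −0.5. Among all genes tested 0.468% and 0.444% did. Epm2a itself was at 0.45. Rats of a group with a higher index tended to have more Rasd2 (r = 0.75), TC615028 (0.67) and Rasl10a (0.65), and less Eln (−0.81), Hs3st6 (−0.77) and Kctd3 (−0.80), Kctd3 having been picked out after its values were seen. Of the lower members with r of −0.5 or less 15 were among the 46 bright ones.

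Genes of related pathways were followed with lists of known genes. Of 29 tested genes known to follow the clock in many tissues, to which Wee1 and Tspan4 belong, 1 was called higher and 0 lower in Exposed rats at D90, 0 at D180, 3 higher and 1 lower in Exposed D0 against D28, and 0 higher and 2 lower in Exposed D3 against D28. The shares of all genes tested, as above, were 0.246% higher and 0.135% lower at D90, 0.246% and 0.0793% at D180, 0.69% and 0.734% for D0, and 0.956% and 0.734% for D3, and they apply to each list here. Tspan4 itself was 10.73 ± 0.05 in Control and 11.32 ± 0.27 in Exposed rats at D90 (SD, n = 5 each), a difference of 0.59 that was not called (adjusted p = 0.31). Of 23 extracellular matrix genes, Eln was the only gene called at D90 and at D180, and its D180 call depended on single rats, as given above. In Exposed D0 against D28, 6 of the 23 were called lower, Col1a1 and Eln among them, and in Exposed D3 against D28, 2 were called higher. Of 23 glucocorticoid-responsive genes tested, to which the lipase inhibitor Angptl4 belongs, 0 were called at D90 and D180, 1 higher and 2 lower at D0, and 5 lower at D3. Angptl4 itself differed by 0.05 at D90 and 0.38 at D180 (adjusted p = 1 and 0.579).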

How the data were processed

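The authors deposited Agilent Feature Extraction 11.0.1.1 output (the version in the file headers) for 50 rat lung arrays (7 slides, 62976 spots each), with background-corrected, linear signal intensity and per-spot flags, an unscaled other type of column that marks outliers and spots well above background. They also deposited a series matrix of linear intensity. Its columns follow the ranks of each array's median signal and have nearly the same distribution (column medians 407.6 to 411.3). It is therefore taken here as quantile normalized without background subtraction, which compresses the differences of dim genes. Its scaling and background treatment are not stated in the sources used here. The study's methods also name a batch correction whose terms are not given in the sources used here. No matrix column was left unused (0).

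Members were chosen on the log2 of the matrix values (spots averaged by gene name, control spots left out). The members and gene lists were chosen with earlier results of these data known. For tests, control spots and outlier-flagged spots were left out, log2 processed signal was quantile normalized, spots of a probe were averaged, and the probe with the highest mean stood for each name. A probe was kept when it was above the 95th percentile of 308 negative control spots on at least 5 arrays, which left 25208 genes. Limma 3.58.1 in R 4.3.3 fitted a mean for each of 10 groups over all rats, with Benjamini-Hochberg adjustment. The script, tested on simulated Exposed and Control D90 rats over 25208 genes, recovered 77% of genes changed by a log2 of 1 and made 162 calls, 7 of them false. The RefSeq tables are of GRCr8. At 84 spots the gene name differed in 22 files, and the most common name over the files was used.

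Named genes were the 8 higher and 8 lower members with a symbol and the widest smaller control difference, members in a pathway or cell list, up to 10 in each direction called at both D90 and D180, and 3 genes on each side of the limit, of which 1 is not reported here. Others are said to be picked out later. Alternatives were slide as a block, a replicate block, 75th percentile scaling, normexp background correction (offset 50), the matrix values, the mean of all probes, no filter, a filter of 25 arrays, the arrays of only the 2 groups, other call limits, and each rat left out. The 41 members that met the rule without any single control rat were an alternative chosen after seeing the data.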

Additional observations from a re-analysis of the deposited data

Results flagged for a closer look

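In 120 groups of 5 rats, those of 10 genes and of the mean of each member set, the highest or lowest rat was checked for its distance from the others, and chance alone puts about 1 in 20 groups past this limit. Adamts9 had a lowest Control D180 rat at 9.99, far below its group mates at 11.06 to 11.44. Car5a had a highest Exposed D180 rat at 6.80 and Rasd2 a highest Exposed D3 rat at 10.4. Hs3st3a1 had a highest Control D3 rat at 9.29. The mean of the lower members was highest in 1 Control D90 rat, at 6.68, and lowest in 1 Exposed D180 rat, at 6.26.

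The mean of the higher members moved in opposite directions on different days. All 5 Exposed rats were below the Control mean at D0, by −0.875 on average, and at D3, by −1.12, and all 5 were above it at D28, by 0.672, at D90, by 0.735, and at D180, by 0.716. The mean of the lower members moved the other way, by 0.182 at D0, 0.543 at D3, −0.752 at D28 and −0.214 at D180, in all 5 Exposed rats of each of these days. At D0 the median over the 98 lower members was −0.00502, with 49 above and 49 below 0, and the highest was 4.15 (Cxcl5). At D90 their mean was 6.538 ± 0.079 in Control and 6.403 ± 0.118 in Exposed rats (SD, n = 5 each), and the highest Exposed rat, at 6.543, lay above the Control mean. Control values of D0, D3 and D28 chose the members, which by itself pulls the signs on those days, and the difference between days was not tested.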

How the results depend on the processing

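All counts here are of members called in the control direction. At D90 there were 18, from 15 (normexp) to 26 (adjusted p with no fold limit) under the other settings, and 15 to 21 with 1 rat left out. At D180 there were 12, 9 to 16 under most settings, 19 with an unadjusted p and the fold limit, and 6 to 13 with 1 rat left out. For Exposed D0 against D28 there were 12, 9 with only the arrays of the 2 groups, 19 with an unadjusted p, and 11 to 16 with 1 rat left out, and for Exposed D3 against D28 there was 1, with 0 under normexp, under the matrix values and with only the arrays of the 2 groups, 3 with no fold limit, 2 with an unadjusted p, and 0 to 2 with 1 rat left out (0 without Exposed D3 rat 5 or Exposed D28 rat 3, 2 without Exposed D3 rat 4 or Exposed D28 rat 5). For Control D180 against D90 it was 0 under every setting run. The median difference in the control direction, over members, was 0.268 at D90 and 0.366, 0.288 and 0.329 within the 3 slides that held both groups, and 0.211 at D180 with 0.172, 0.198 and 0.211. For Exposed D0 against D28 it was 0.222, but −0.0442 within slide 1, where the cause was not tested. With slide as a block 22, 16 and 17 members were called at D90, D180 and in Exposed D0 against D28. The shares of all genes tested also rose with that block. Called higher and lower, they were 0.377% and 0.226% at D90, 0.393% and 0.163% at D180, and 1.01% and 1.04% in Exposed D0 against D28.

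The rule gave 117 members on the matrix and 754 on the background-corrected processed signal of the brightest probe (105 shared), 616 with 75th percentile scaling and the mean of probes (106 shared) and 19 with a limit of 1. It gave 112 to 186 with 1 control rat left out. Replicate numbers did not pair the rats: the 25 same-number correlations ran from −0.374 to 0.339, 5 were over 0.1, and only 7 were the highest for their rat. With a replicate block 17 members were called at D90, 12 at D180, 12 in Exposed D0 against D28, 1 in Exposed D3 against D28 and 0 in the later controls.

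Dim members set the limit of these data, since 34 were well above background on fewer than 10 arrays.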
